A study of Homo sapiens with 6 samples.

Results

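F-box proteins and cullins are the interchangeable and the fixed parts of the cullin-RING ubiquitin ligases. Their genes were examined in RNA-seq values of PANC-1, a long-used epithelial line derived from a human ductal tumor of the pancreas. Members were the protein-coding genes named FBXO, FBXL or FBXW with a number or CUL with a number, together with SKP1, RBX1, CCNF and BTRC. SKP2 and FBXO22 were left out by rule. The rule gave 72 members among the 30735 genes in the files, namely 8 cullins, SKP1 and RBX1, 11 F-box genes with WD repeats, 16 with leucine-rich repeats and 35 other F-box genes. It used gene names only and no measured value. The study transfected PANC-1 cells with CD73 siRNA (3 samples) or with negative control (3 samples), using a cationic lipid reagent in serum-free medium, to look for genes downstream of CD73. Cells of both groups were grown in DMEM with fetal bovine serum, and the samples of each group carry the numbers 1 to 3. The study gives a single catalogue number for the CD73 siRNA and describes the samples as separate knockdown experiments in a single cell line.

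In an SCF ligase, a cullin scaffold holds the RING protein RBX1, which docks the ubiquitin-conjugating enzyme, at its one end, and the adaptor SKP1 with an F-box protein at the other. The F-box protein picks the substrate, so that the same CUL1 core can mark cyclins, IκBα, β-catenin or clock proteins for the proteasome depending on the F-box protein it carries. Other cullins use other adaptors, and the ligases are known in tumor cells mainly for their control of the cell cycle.

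The deposited values were read as levels in RPKM (reads scaled by the length of the gene and the depth of the library). A value after ± is the standard deviation over the 3 samples of a group. Members spanned a wide range of levels. The mean over all 6 samples was at least 10 RPKM in 25 members, while 11 members stayed below 1 RPKM in every sample. FBXO27 was the highest member at 75.5 RPKM, followed by FBXW11 at 56.6 RPKM, FBXO17 at 40.3 RPKM, FBXO2 at 36.3 RPKM and CUL1 at 34.1 RPKM. By role, the median level was 15.6 RPKM for the cullins, 5.91 RPKM for the F-box genes with WD repeats, 3.37 RPKM for those with leucine-rich repeats and 4.96 RPKM for the other F-box genes. These levels use the merged exon length of each gene, so that a gene with a long, seldom used exon appears lower than its transcripts are.

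**Figure D1:**
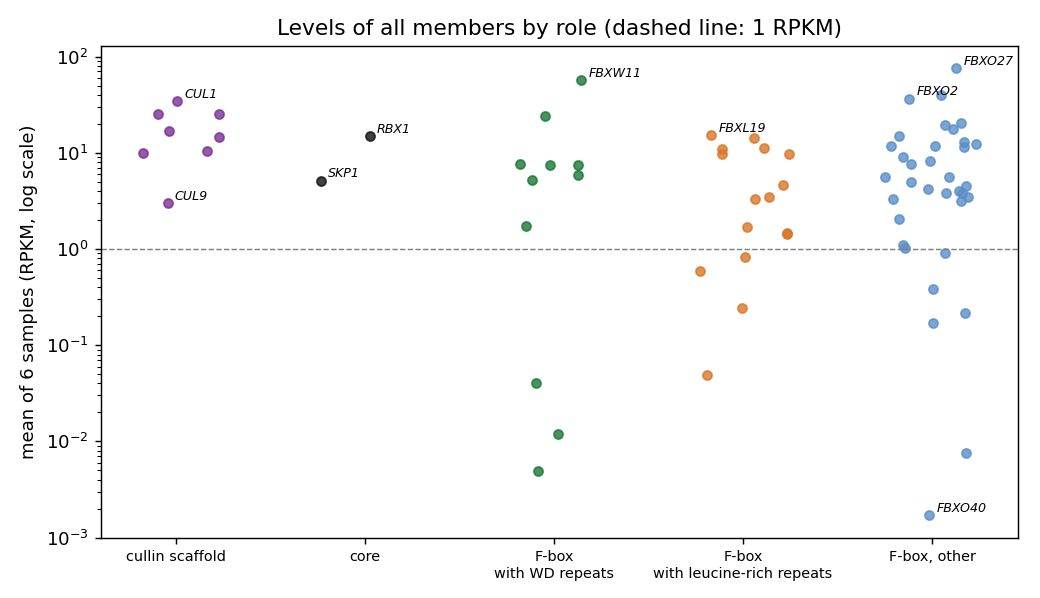
Mean RPKM over the 6 samples (log axis) of each of the 72 members, as points in columns by role; the sideways spread within a column carries no value. The cullins lie between 2.97 and 34.1 RPKM, whereas each F-box class reaches from below 1 RPKM to 15.2 RPKM or more.

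A family of related F-box proteins, some of which bind sugar chains and recognize glycoproteins for degradation, stood high in this order. All 5 of its genes, FBXO2, FBXO6, FBXO17, FBXO27 and FBXO44, were among the 11 highest members, with means from 17.7 to 75.5 RPKM. They lie in a pair of short clusters in GENCODE release 29 (GRCh38). FBXO2 (chromosome 1, 11637018 to 11655785, reverse strand) overlaps FBXO44 (11654375 to 11663327, forward strand), and 796 bases separate the latter from FBXO6. FBXO17 and FBXO27 are neighbours on the reverse strand of chromosome 19, with 14803 bases between them. Whether the counting used strand is not given in the sources used here, so reads in the overlap of FBXO2 and FBXO44 cannot be assigned with certainty. FBXO17 overlaps the annotated coding gene AC011455.2 on the same strand, and how reads in that overlap were counted is not known.

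If the unit is RPKM, the library totals recovered from the values were between 15009113 and 16836207 reads. NT5E, the gene of CD73, was at 3.36, 6.85 and 8.22 RPKM in CD73 siRNA samples 1, 2 and 3. In the controls it was at 13.96, 13.87 and 17.14 RPKM, and the groups did not overlap. Its log2 fold change was -1.23 (unadjusted p = 0.00144, adjusted p = 0.303 from limma). Of the epithelial markers, KRT8, KRT18 and KRT19 were present in every sample (at least 3.59 RPKM). KRT8 and KRT18 fell after CD73 siRNA, to 39.2% and 61.6% of the control mean (log2 fold changes of -1.27 and -0.68, unadjusted p = 0.00261 and 0.00448 and adjusted p = 0.303 for both from limma), and their groups were separated. These were 2 of the 4 tested epithelial markers, and their part in the differences described here was not tested. EPCAM was low (0.58 to 1.71 RPKM) and KRT7 was near absent (at most 0.11 RPKM). Among markers of other cells, PTPRC, PECAM1, VWF, ALB and INS were at or near 0 (at most 0.0765 RPKM), whereas COL1A1 was present at 8.97 to 19.1 RPKM. A second fit took samples of the same number as pairs.

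CD73 knockdown left the levels of most F-box and cullin genes within a narrow range. The summed level of the 72 members was 733.1, 720.3 and 730.8 RPKM in CD73 siRNA samples 1, 2 and 3 and 741.5, 717.9 and 712.6 RPKM in the controls, and the groups overlapped. The test used limma on log2(RPKM + 1) and was limited to genes that reached 1 RPKM in 3 or more samples, as 59 of the 72 members did. Of these, 31 had a higher and 28 a lower mean after CD73 siRNA. The median log2 fold change (CD73 siRNA minus control) was 0.02 for the members and 0.01 for all 12527 tested genes. At the study's cut-off of p below 0.01, taken here as unadjusted since the study does not say, limma called no member. Of all tested genes, 1.82% were past it as higher and 1.31% as lower. The study's list of changed genes came from its own analysis and was not compared with these calls. At an unadjusted p below 0.05, limma called 3 members (5.08%) against 12.1% of all tested genes. A linear model without moderation called 0 members below 0.01, and 5 (8.47%) below 0.05 against 9.2% of all tested genes. The count below 0.05 was 10 (16.9%, against 23.3% of all tested genes) with the sample number as a block. It ranged from 1 (1.69% against 6.04%) without CD73 siRNA sample 1 to 7 (11.9% against 18.2%) without control 2, and in each of these fits the share of members was below that of all tested genes. No member had an adjusted p below 0.05 (0.00798% of all tested genes had), and the smallest was 0.34. NT5E, the targeted gene, was not below 0.05 either, with an adjusted p of 0.303 from limma.

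The size of the differences was bounded more closely than the calls show. The largest log2 fold changes were 0.54 (FBXO45) and -0.33 (FBXL18, at 77.9% of the control mean), and the median absolute log2 fold change was 0.10 for the members and 0.14 for all tested genes. In 46 members the 95% interval of the log2 fold change lay wholly inside a change of 1.5 times in either direction, and in all 59 it lay inside a change of 2 times, against 68.9% and 94.3% of all tested genes. Adding 1 RPKM understates the changes of low genes. With 0.1 added in its place, the intervals of 40 and 57 members lay inside these limits, against 52.7% and 84.8% of all tested genes.

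**Figure D2:**
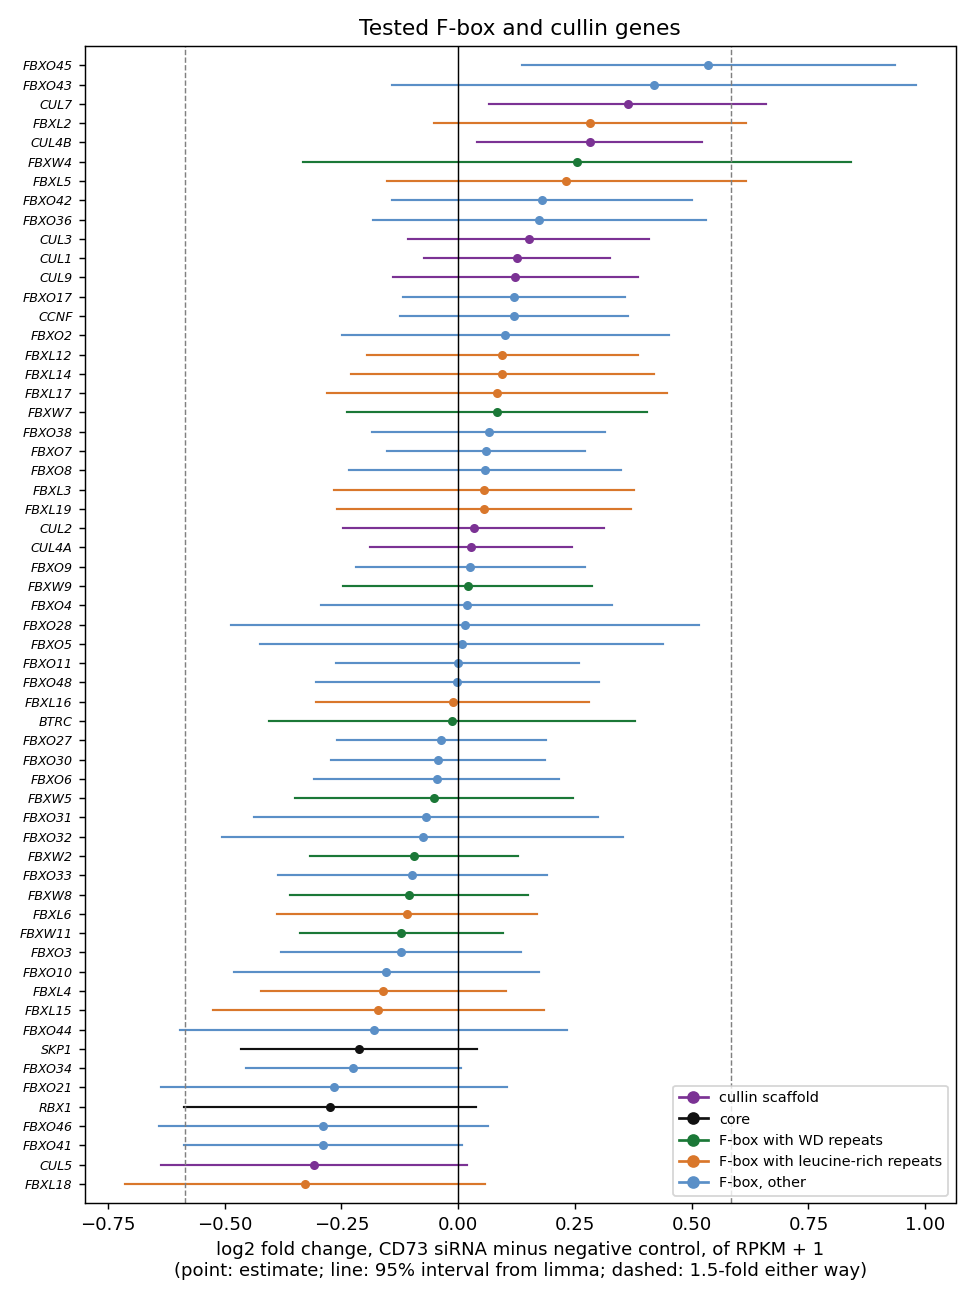
Log2 fold change of RPKM + 1 after CD73 siRNA (horizontal axis) for the 59 tested members, ordered by size, with the 95% interval from limma as a line and the role as color. The estimates run from -0.33 to 0.54, and the intervals of FBXO45, CUL7 and CUL4B are the ones that do not contain 0.

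In 6 of the 59 tested members every CD73 siRNA sample was above every control, and in 4 every one was below. Among all tested genes, 10.3% and 8.07% were separated in this way. The higher members were FBXO45, CUL7, CUL4B, FBXL2, CUL3 and CUL1, and the lower ones were FBXO34, SKP1, FBXW11 and FBXW2. With 3 samples against 3, the two-sided exact permutation test cannot give a p below 0.1 for any of them. When limma was given the sample number as a block, 2 members were past an unadjusted p below 0.01 as higher (FBXO45 and CUL7) and 1 as lower (CUL5), against 4.27% and 3.30% of all tested genes. The smallest adjusted p of a member was then 0.119.

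Of the 8 cullins, 4 were separated between the groups, all of them higher after CD73 siRNA. Among all tested genes, 10.3% were separated as higher and 8.07% as lower. The median log2 fold change of the 8 was 0.12, and the cullins were not tested as a set. The scaffold CUL7 forms a ligase with the F-box protein FBXW8 and lies on chromosome 6 (43037617 to 43053945, reverse strand), where it overlaps KLC4 on the other strand. It was at 11.2, 12.5 and 11.5 RPKM in the CD73 siRNA samples and at 7.90, 10.7 and 8.33 RPKM in the controls. Control 2 was the highest control and came nearest to the knockdown samples. The means were 11.8 ± 0.69 and 8.98 ± 1.51 RPKM. This is a log2 fold change of 0.36 with a standard error of 0.13, and limma gave an adjusted p of 0.357. With the sample number as a block, CUL7 had an unadjusted p of 0.0053 and an adjusted p of 0.119. With single samples left out of the unblocked fit, the log2 fold change ranged from 0.29 without control 1 (unadjusted p = 0.0709) to 0.48 without control 2 (unadjusted p = 0.0034). Leaving out control 2 also raised the higher calls among all genes from 228 to 540.

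CUL4A and CUL4B are close paralogs that both carry the adaptor DDB1. CUL4B, on the X chromosome (120524609 to 120575794), was at 29.6, 27.7 and 26.1 RPKM in the CD73 siRNA samples and at 20.6, 23.3 and 24.3 RPKM in the controls, with a log2 fold change of 0.28 (95% interval 0.04 to 0.52, adjusted p = 0.366 from limma). CUL4A (chromosome 13) was at 25.1, 26.2 and 25.8 RPKM against 23.6, 25.2 and 26.9 RPKM, and its log2 fold change was 0.03 (95% interval -0.19 to 0.24). The ratio of CUL4B to CUL4A was therefore above 1 in each knockdown sample (1.18, 1.06 and 1.013) and below 1 in each control (0.87, 0.92 and 0.90). This ratio and 6 others were chosen after the values had been seen and are given as descriptions. The exact permutation test gave p = 0.1 for this ratio, the lowest it can give, and 0.175 after adjustment over all the ratios.

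CUL5, the scaffold that works with elongin adaptors and SOCS-box proteins, was the only cullin with a lower mean after CD73 siRNA. Its levels were 12.6, 15.6 and 16.5 RPKM in CD73 siRNA samples 1, 2 and 3 and 16.03, 18.7 and 21.4 RPKM in controls 1, 2 and 3. The groups overlapped, since number 1 was lowest and number 3 highest in both, but each knockdown sample was below the control of its number, by 0.32, 0.25 and 0.36 on the log2 scale. The log2 fold change was -0.31 in both fits. Without CD73 siRNA sample 1 it was -0.20 in the unblocked fit. The standard error was 0.14 without the block (unadjusted p = 0.0609) and 0.08 with it (unadjusted p = 0.00599, adjusted p = 0.119).

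The remaining cullins differed less. CUL1, the SCF scaffold (chromosome 7), was at 36.9, 34.9 and 35.2 RPKM in the CD73 siRNA samples and at 32.0, 33.0 and 32.7 RPKM in the controls. These groups were separated, but by a log2 fold change of 0.13 only (95% interval -0.07 to 0.33). CUL3, which carries BTB-domain substrate receptors, was at 11.9, 9.87 and 9.93 RPKM against 8.77, 9.84 and 9.59 RPKM. Its second knockdown sample exceeded the second control by 0.0038 on the log2 scale, and its log2 fold change was 0.15, or 0.069 without CD73 siRNA sample 1. CUL2, the scaffold of the VHL ligase, had means of 14.6 ± 1.17 and 14.3 ± 1.87 RPKM. CUL9 was the lowest cullin, with means of 3.14 ± 0.23 and 2.81 ± 0.22 RPKM.

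**Figure D3:**
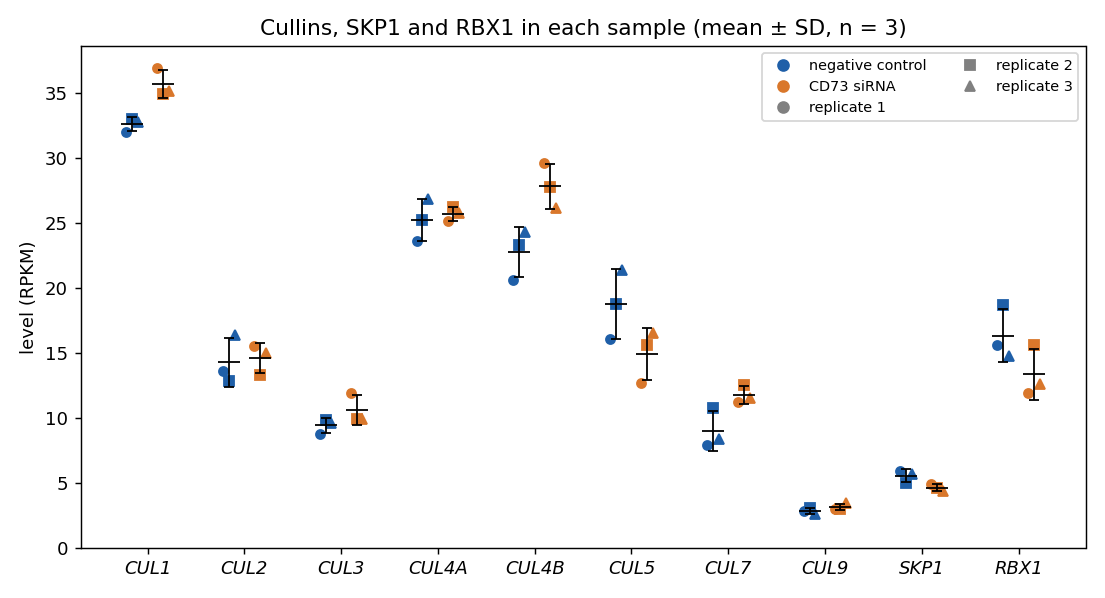
Level in RPKM of the 8 cullins, SKP1 and RBX1 in each control (blue) and CD73 siRNA sample (orange), with symbols for the sample number and bars for the mean ± SD of 3 samples. CUL1, CUL3, CUL4B and CUL7 have every orange point above every blue one, SKP1 has every orange point below, and the others overlap.

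SKP1 and RBX1, the partners that CUL1 needs in an SCF ligase, both had lower means in CD73 knockdown cells. SKP1 was at 4.91, 4.62 and 4.36 RPKM in the CD73 siRNA samples and at 5.91, 4.98 and 5.69 RPKM in the controls. Every knockdown sample was below every control. Its log2 fold change was -0.21 (95% interval -0.46 to 0.04, adjusted p = 0.474 from limma). The merged exons of SKP1 are 12771 bases long, by which its reads were divided, and 2 annotated coding genes overlap it, TCF7 among them. How reads in the overlap were counted is not known. RBX1 was at 11.9, 15.6 and 12.6 RPKM against 15.6, 18.6 and 14.8 RPKM. Its groups overlapped, but within the numbers 1, 2 and 3 it was lower by 0.36, 0.25 and 0.22 on the log2 scale. The log2 fold change of RBX1 was -0.28 (-0.18 without control 2), with an unadjusted p of 0.0772 without the block and 0.012 with it.

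The levels of CUL1 and its partners can also be set against each other within a sample. The ratio of CUL1 to SKP1 was 7.51, 7.56 and 8.07 in the CD73 siRNA samples and 5.41, 6.63 and 5.75 in the controls. It had to be separated, since CUL1 was higher and SKP1 lower in each knockdown sample. The ratio of CUL1 to RBX1 was 3.10, 2.24 and 2.80 in the knockdown samples and 2.06, 1.77 and 2.22 in the controls, where knockdown sample 2 cleared control 3 only narrowly. Of the 7 ratios examined, these and the ratios of CUL4B to CUL4A and of CUL7 to FBXW8 were separated between the groups. FBXW8 itself was at 4.95, 4.92 and 5.11 RPKM after CD73 siRNA, against 6.01, 5.56 and 4.82 RPKM with negative control. The ratios of CUL5 to its RING partner RNF7, of FBXW11 to BTRC and of FBXO45 to its partner MYCBP2 overlapped. These are ratios of mRNA levels and say nothing of the assembled ligases.

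Among the F-box proteins with WD repeats, BTRC and FBXW11 encode the paralogs β-TrCP1 and β-TrCP2, which recognize phosphorylated IκBα and β-catenin. BTRC was at 7.58, 6.03 and 8.73 RPKM in the CD73 siRNA samples and at 7.97, 5.91 and 8.74 RPKM in the controls, hardly apart within any number. Its log2 fold change was -0.01 (95% interval -0.40 to 0.38). FBXW11 was at 51.0, 55.2 and 56.3 RPKM against 56.7, 57.3 and 63.1 RPKM. Its groups were separated, with a log2 fold change of -0.12 (95% interval -0.34 to 0.10, adjusted p = 0.629 from limma). FBXW11 was the more abundant paralog in each sample, by 6.45 to 9.69 times per length. FBXW7, the receptor for cyclin E, MYC and NOTCH1, was low, at 2.14, 1.79 and 1.48 RPKM against 1.84, 1.57 and 1.51 RPKM. FBXW2 had means of 7.10 ± 0.16 and 7.66 ± 0.41 RPKM and was separated by a log2 fold change of -0.10 (95% interval -0.32 to 0.13). None of the 8 tested members of this class was past p below 0.01 with or without the block.

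FBXO45 had the largest log2 fold change of all members. It encodes an atypical F-box protein that joins SKP1 and the large RING protein MYCBP2, without CUL1, and is best known from neurons. The gene lies on chromosome 3 (196568611 to 196589059, forward strand) and overlaps WDR53 on the other strand. Its levels were 16.3, 15.9 and 13.8 RPKM in the CD73 siRNA samples and 7.74, 13.0 and 10.6 RPKM in the controls. The lowest knockdown sample was just above the highest control. The means were 15.3 ± 1.36 and 10.4 ± 2.65 RPKM, and limma gave a log2 fold change of 0.54 with a standard error of 0.17 and an adjusted p of 0.342. Within the numbers 1, 2 and 3 the difference was 0.98, 0.27 and 0.35, and control 1 was the lowest of the controls. With the sample number as a block the unadjusted p was 0.00905 and the adjusted p was 0.128. Without control 2 in the unblocked fit the log2 fold change was 0.70 (unadjusted p = 0.00241), and over all single samples left out it ranged from 0.35 to 0.70.

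**Figure D4:**
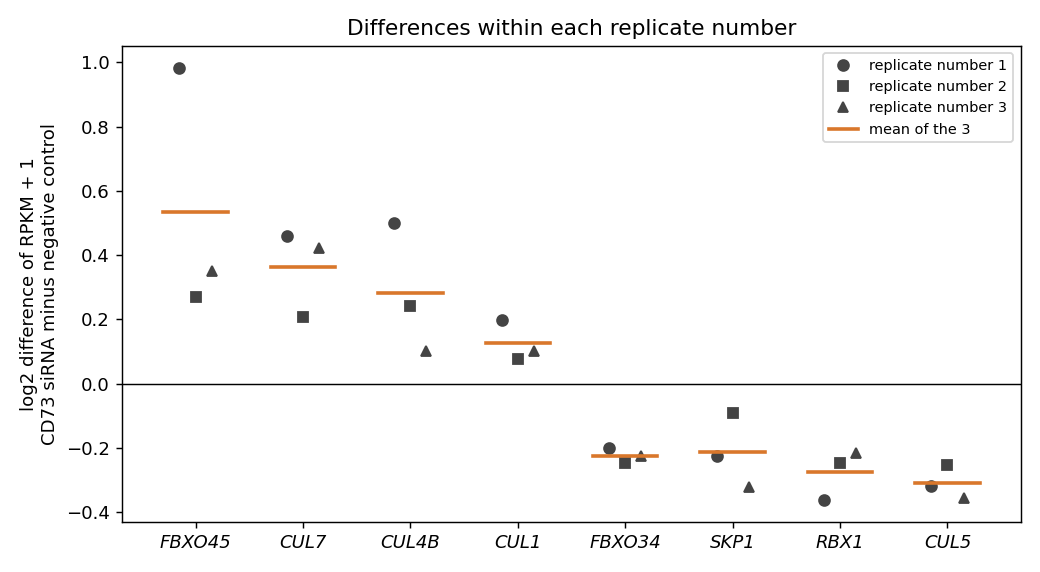
Log2 difference of RPKM + 1 (CD73 siRNA minus control) within the sample numbers 1 (circle), 2 (square) and 3 (triangle) for 8 members, with the mean of the 3 as a bar. Every point lies on the same side of 0 as the others of its gene. For FBXO45, CUL7, CUL4B, CUL1, FBXO34 and SKP1 this had to be so, since their groups were separated. Over the 59 tested members the sign was the same in 45.8%, against 51.4% of all tested genes. The difference of 0.98 of FBXO45 in number 1 is the farthest from 0.

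Of the 29 tested members among the other F-box genes, FBXO45 was separated as higher and 1 further member as lower. Among all tested genes, 10.3% and 8.07% were separated in these ways. FBXO34 was at 8.29, 8.67 and 7.83 RPKM in the CD73 siRNA samples and at 9.68, 10.49 and 9.32 RPKM in the controls. Its differences within the numbers were the most even of the separated members, at -0.20, -0.25 and -0.22. The log2 fold change was -0.22 (95% interval -0.45 to 0.01, adjusted p = 0.422 from limma).

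Other F-box genes named here overlapped between the groups. FBXO5 encodes EMI1, the inhibitor of the anaphase-promoting complex at the entry into S phase. It was at 21.3, 22.4 and 15.1 RPKM in the CD73 siRNA samples and at 18.5, 23.9 and 15.97 RPKM in the controls, with a log2 fold change of 0.01 (95% interval -0.42 to 0.44). Its paralog FBXO43, which encodes EMI2, had the second-ranked log2 fold change of the members, 0.42 (95% interval -0.14 to 0.98, adjusted p = 0.508 from limma). FBXO43 was at 4.24, 3.89 and 5.05 RPKM against 1.66, 3.73 and 4.15 RPKM, so control 1 lay below all other samples, and the difference was 0.98, 0.05 and 0.23 within the numbers 1, 2 and 3. CCNF encodes cyclin F, the founding F-box protein, whose mRNA peaks in G2. It had means of 12.3 ± 0.66 and 11.3 ± 1.04 RPKM, with a log2 fold change of 0.12 (95% interval -0.12 to 0.36). The abundant FBXO27, FBXO17 and FBXO2 also overlapped. FBXO27 had means of 74.5 ± 4.0 and 76.5 ± 5.54 RPKM, FBXO17 of 42.0 ± 3.04 and 38.6 ± 2.76 RPKM, and FBXO2 of 37.6 ± 5.42 and 35.1 ± 5.94 RPKM.

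Among the F-box proteins with leucine-rich repeats, 12 of 16 members were tested. Of these, 1 was separated as higher and 0 as lower, beside 10.3% and 8.07% of all tested genes. FBXL2 was at 2.15, 1.44 and 1.57 RPKM in the CD73 siRNA samples and at 1.19, 1.15 and 1.34 RPKM in the controls. Knockdown sample 1 stood above the rest, and the log2 fold change was 0.28 (95% interval -0.05 to 0.62, adjusted p = 0.474 from limma). Without CD73 siRNA sample 1 the log2 fold change of FBXL2 was 0.17. FBXL5, the iron-sensing receptor that degrades iron regulatory proteins, was at 16.2, 17.7 and 12.3 RPKM against 12.3, 15.6 and 11.04 RPKM. Its groups overlapped, although within each number the knockdown sample was the higher, by 0.37, 0.17 and 0.15 on the log2 scale (unadjusted p = 0.0327 with the block). Its log2 fold change was 0.23, and with single samples left out it ranged from 0.13 without CD73 siRNA sample 2 to 0.37 without CD73 siRNA sample 3.

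The size of the differences depended on the sample number. The median absolute log2 difference of the 59 members was 0.18 between the samples numbered 1, 0.08 between those numbered 2 and 0.12 between those numbered 3. All tested genes followed the same order, with 0.24, 0.10 and 0.15. In 36 members (61.0%) the difference was largest in number 1, as in 58.9% of all tested genes. The sign was the same in all 3 pairs in 27 members (45.8%), 13 of them higher and 14 lower, against 51.4% of all tested genes.

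The share of members that differed between sample numbers was near that of all genes. In the model with treatment and number, limma's F test of the number called 5 of the 59 members (8.47%) at an unadjusted p below 0.01, beside 9.27% of all tested genes. None of the members had an adjusted p below 0.05 (1.82% of all tested genes had). The smallest adjusted p was 0.0558, for FBXO28. FBXO28 was at 15.7, 18.4 and 10.7 RPKM in CD73 siRNA samples 1, 2 and 3 and at 14.3, 18.2 and 11.5 RPKM in controls 1, 2 and 3. Both groups were thus highest in number 2 and lowest in number 3, and the log2 fold change between the groups was 0.02. The same order was seen in FBXO5 and FBXL5, whose values are given above, and in FBXW4, a gene of the split hand/foot region, at 7.82, 10.6 and 6.70 RPKM and 7.45, 9.37 and 4.28 RPKM. The log2 fold change of FBXW4 after CD73 siRNA was 0.25, and -0.021 without control 3. BTRC had the reverse order, lowest in number 2 and highest in number 3 in both groups. BTRC and FBXW4 are neighbours on chromosome 10, with 53342 bases between them.

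**Figure D5:**
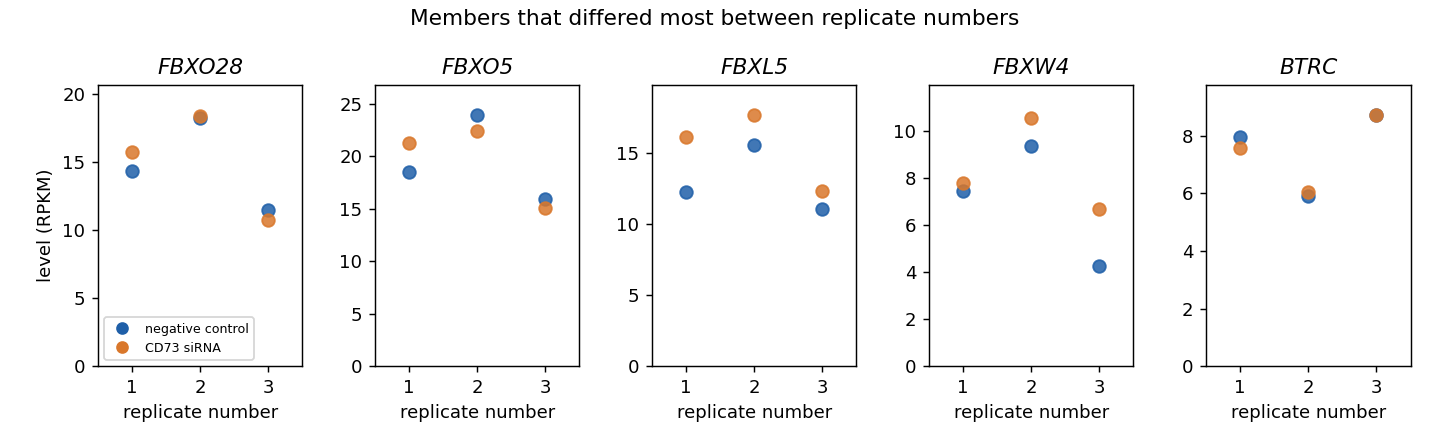
Level in RPKM (axis from 0) of the 5 members with the smallest p between sample numbers, by number, with the control in blue and the CD73 siRNA sample in orange. FBXO28, FBXO5, FBXL5 and FBXW4 are highest in number 2 and lowest in number 3 in both groups, and BTRC is lowest in number 2.

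Over the 59 tested members, deviations from the group means correlated between samples of the same number at 0.05, 0.69 and 0.59 for the numbers 1, 2 and 3 and at -0.65 to 0.13 between different numbers. These are descriptions across genes, which share the libraries and are not independent. The count of members that differed between numbers moved with single samples, as did that of all tested genes. It was 11 without CD73 siRNA sample 1, 3 without sample 2 and 1 without sample 3, and 8, 2 and 1 without controls 1, 2 and 3. The counts over all tested genes were 2077, 1252 and 501 without CD73 siRNA samples 1, 2 and 3 and 1609, 932 and 495 without controls 1, 2 and 3. What the numbers stand for (a day, a passage or a batch) is not given in the labels, so these differences carry no name here.

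Among other genes of the cullin-RING pathway, few were called. Of 52 genes that attach or remove NEDD8, form the COP9 signalosome or exchange factors, pass on ubiquitin, or act as adaptors of other cullins, 51 were tested. None was past an unadjusted p below 0.01 as higher and 1 was past it as lower, beside 1.82% and 1.31% of all tested genes, and the median log2 fold change was 0.03. The gene was UBE2D1, a ubiquitin-conjugating enzyme that works with many RING ligases. It fell from 6.74, 8.44 and 7.36 RPKM in the controls to 4.48, 4.74 and 4.87 RPKM in the CD73 siRNA samples, a log2 fold change of -0.58 (unadjusted p = 0.00092, adjusted p = 0.303 from limma). Its relatives UBE2D2 and UBE2D3 had log2 fold changes of 0.06 and -0.20. With the block, 1 gene was past p below 0.01 as higher (KLHL12, a CUL3 receptor) and 3 as lower (UBE2D1, SPOP, another CUL3 receptor, and CKS2), beside 4.27% and 3.30% of all tested genes. The 11 tested genes of NEDD8 attachment, which activates cullins, held none past this threshold in either fit.

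The 13 members below the filter were given no test across genes. FBXO15 was the highest of them at 0.90 RPKM, followed by FBXL20 at 0.82 RPKM, and neither had separated groups. FBXO16 was the single separated member here, and the share of separated genes below the filter was not computed. It had 11 to 17 reads in a sample and means of 0.25 ± 0.02 RPKM after CD73 siRNA and 0.18 ± 0.01 RPKM in the controls (exact permutation test, p = 0.1). FBXL22, FBXO39, FBXO40, FBXW10, FBXW10B and FBXW12 had at most 6 reads in any sample, too few to show a difference at this depth. FBXW10 and FBXW10B are close copies of each other, and how reads were shared between them is uncertain.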

How the data were processed

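Gene-level RNA-seq values of 6 PANC-1 samples were used, 3 with CD73 siRNA and 3 with negative control, grouped by their titles. The authors deposited one table per sample in a unit read here as RPKM. The submitters' processing notes name bcl2fastq, Bowtie2 2.2.3, HTSeq 0.6.0 and hg38. The annotation, the strand setting and the unit are not given in the sources used here. The unit was inferred from the values, which were multiplied by the merged exon length of GENCODE release 29 (GRCh38). Of those worth fewer than 1000 reads, 95.5% to 95.6% were then whole multiples (within 0.05) of a single step per sample. Any unit that divides reads by this length and by a constant per sample would pass, so the check does not single out RPKM. The step gave the library totals, which hold only if the unit is RPKM. Of the 30735 identifiers, 132 are absent from release 29.

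The 12527 genes that reached 1 RPKM in 3 or more samples were tested with limma 3.58.1 in R 4.3.3 on log2(RPKM + 1), with a variance trend and Benjamini-Hochberg adjustment over all of them. Sample numbers were tested by limma's F test in the model with treatment. The numbers were taken as pairs because deviations from the group means, over all tested genes, correlated between samples of the same number at 0.20, 0.48 and 0.55 for the numbers 1, 2 and 3. The blocked p-values rest on this pairing, which comes from the data, not from the labels. Over the tested members the correlation was 0.05 for number 1, and at most 0.13 between different numbers. The p-values from limma set each difference against the spread between these samples, with variances moderated over all tested genes. Beside the 72 members, 4 name matches were dropped as pseudogenes in GENCODE or RefSeq. Members and lists were chosen with earlier results of these data known. Genes named in the text are the cullins, SKP1, RBX1, CCNF, BTRC, FBXW7 and FBXW11, members past p below 0.01 in either fit, up to 5 separated members in each direction, the 5 highest, the 5 with the smallest p between numbers, and listed pathway genes past p below 0.01. FBXO6, FBXO44, FBXW8, FBXL18, FBXO43, FBXO16 and the other low members, UBE2D2, UBE2D3 and the blocked pathway genes were named after their values were seen. Alternatives were another pseudocount (0.1), no filter, a block on the sample number, median centring, no moderation and each sample left out. The scripts were checked on simulated data. A listed marker of other cells is not reported here.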

Additional observations from a re-analysis of the deposited data

How the results depend on the processing

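With the replicate number as a block, members past an unadjusted p below 0.01 went from 0 to 2 higher and from 0 to 1 lower, and all tested genes from 228 to 535 higher and from 164 to 413 lower. Without moderation, 119 genes were higher and 97 lower. With single samples left out, the counts ranged from 0 to 2 for higher members, from 61 (without CD73 siRNA replicate 1) to 540 (without negative control replicate 2) for all higher genes, and from 55 to 252 for all lower genes, in the same order of samples. Between sample numbers, 3 members were past the threshold with no filter in place of 5, and 1 to 11 with single samples left out (495 to 2077 of all genes in place of 1161). This leave-one-out of the number test, and its centring, were chosen after seeing the data. The median log2 fold change of the members was -0.0034 after median centring and ranged from -0.0098 to 0.019 without single samples. Some fold changes changed sign, that of FBXW4 from 0.25 and the others from nearer to 0. After centring FBXO28 was at -0.0034 and FBXO5 at -0.011, and without single samples the ranges were -0.16 to 0.11 for BTRC, -0.035 to 0.13 for CUL2, -0.017 to 0.072 for CUL4A, -0.083 to 0.019 for FBXO27, -0.14 to 0.22 for FBXO28, -0.12 to 0.18 for FBXO5, -0.021 to 0.46 for FBXW4 and -0.0022 to 0.17 for FBXW7. Beside CUL5, CUL7 and FBXO45, the block changed no call of a named member at p below 0.01. At p below 0.05 it added, among others, RBX1 (0.012), FBXL5 (0.0327), FBXO34 (0.0258), FBXL18 (0.0189) and CUL5. The cause of these changes was not tested.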
